A study of Mus musculus with 30 samples.

Results

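The genes described here are Nnt, Wdfy1 and Atp10d, 3 of the 25899 genes with a count and of the 14346 genes that passed the filter on low counts. They were selected on the measured values themselves, for a higher level in Lrrk2 knockout (KO) than in wild-type (WT) microglia under each treatment. The difference between genotypes is therefore given as a description, without a test, while the response to treatment within a genotype, the transcripts and the surrounding genes were examined in their own right. The working name calls the 3 genes substrain-linked. The labels give the strain of all 30 libraries as C57BL/6 with no substrain, so a difference in substrain between the genotypes was not tested.

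The libraries were made from primary microglia, the tissue macrophages of the central nervous system, from postnatal mouse brain and labelled postnatal day 21. There were 15 libraries of genotype Lrrk2-/- and 15 wild-type libraries. Untreated control cells gave 6 KO and 5 WT libraries, lipopolysaccharide (LPS, a bacterial cell wall ligand of Toll-like receptor 4) gave 4 KO and 6 WT libraries, and α-synuclein fibrils (aggregates of the protein deposited in Parkinson's disease) gave 5 KO and 4 WT libraries. Doses, exposure times and sex are not stated, and the labels do not say whether libraries of a group came from separate animals or cultures, so the p-values measure the spread between these libraries, which may be technical. Total RNA was depleted of ribosomal RNA and sequenced as stranded libraries with 100-bp single-end reads.

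Nnt encodes the nicotinamide nucleotide transhydrogenase of the inner mitochondrial membrane, which uses the proton gradient to make NADPH for the mitochondrial glutathione and thioredoxin systems. The C57BL/6J substrain carries a multi-exon deletion in Nnt that other C57BL/6 substrains lack, and the mm10 reference is a C57BL/6J genome. Wdfy1 encodes an endosomal protein with WD repeats and a FYVE domain, which binds phosphatidylinositol 3-phosphate, and it recruits the adaptor TRIF to Toll-like receptors 3 and 4. Atp10d encodes a P4-ATPase, a lipid flippase of the class that moves lipids from the outer to the inner leaflet of membranes, with glucosylceramide as a substrate.

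In mm10, with the GENCODE M21 annotation, Nnt (ENSMUSG00000025453) lies on chromosome 13 from 119335448 to 119408997 on the minus strand. Wdfy1 (ENSMUSG00000073643) lies on chromosome 1 from 79702262 to 79776143 on the minus strand. Atp10d (ENSMUSG00000046808) lies on chromosome 5 from 72203329 to 72298775 on the plus strand and is annotated as a polymorphic pseudogene. The sequences that follow are the stretches of the annotated transcripts that set what the counts of each gene can stand for, all written 5′ to 3′ on the strand of the gene.

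The leading Atp10d transcript, Atp10d-202, reads 816 codons from its start codon to an in-frame stop in exon 12 of 23, after which the frame stays free of stops for another 652 codons, to the end of the annotated coding sequence of 1469 codons. The window around that stop, chr5:72264441-72264503 on the plus strand, is shown with the stop codon in capitals.
Atp10d-202 exon 12: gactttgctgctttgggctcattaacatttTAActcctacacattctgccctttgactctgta
Counts of Atp10d are counts of a transcript annotated with this stop, and reads were not examined for the base at this position.

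The leading Nnt transcript, Nnt-202, has 17 exons and the next most counted, Nnt-201, has 15. The exons of Nnt-202 that Nnt-201 lacks are exon 8, chr13:119374629-119374774, and exon 9, chr13:119372396-119372591, both on the minus strand.
Nnt-202 exon 8: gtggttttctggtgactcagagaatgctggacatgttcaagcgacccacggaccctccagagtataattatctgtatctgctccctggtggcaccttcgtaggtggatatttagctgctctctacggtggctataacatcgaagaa
Nnt-202 exon 9: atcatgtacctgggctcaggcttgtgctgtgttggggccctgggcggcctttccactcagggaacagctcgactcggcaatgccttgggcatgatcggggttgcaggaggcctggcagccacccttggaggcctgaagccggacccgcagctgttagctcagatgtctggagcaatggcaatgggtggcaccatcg
Together they hold 342 bases, and the annotated coding sequences differ by the matching 114 codons, 835 in Nnt-202 and 721 in Nnt-201. Sequence that mm10 lacks can receive no reads, so a transcript with further exons would be counted only over the exons it shares with these models.

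Wdfy1 in mm10 holds the same exons more than once. A 113-base exon lies at chr1:79717203-79717315 and again, letter for letter, at chr1:79724645-79724757, and a 55-base exon lies at chr1:79722214-79722268 and at chr1:79729656-79729710. In both cases the copies start 7442 bases apart on the minus strand.
Wdfy1 113-base exon: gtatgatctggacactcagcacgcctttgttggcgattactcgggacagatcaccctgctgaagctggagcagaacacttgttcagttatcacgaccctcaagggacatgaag
Wdfy1 55-base exon: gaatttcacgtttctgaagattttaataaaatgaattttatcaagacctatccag
A 151-base exon is repeated at the same spacing. As a result the transcripts Wdfy1-204, Wdfy1-205, Wdfy1-206 and Wdfy1-207 have 1 identical sequence of 4551 bases and equal deposited counts in every library. The same holds for Wdfy1-202 with Wdfy1-203 (704 bases) and for Wdfy1-209, Wdfy1-210 and Wdfy1-211 (555 bases). Whether the counting divided reads among the transcripts of such a set or gave a copy to each cannot be told from the counts, so the level of Wdfy1 relative to other genes is less certain than its differences between groups. With identical transcripts counted once, no call on the 3 genes changed.

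The summed gene count of a library was 8936310 at the lowest, 20432234 at the median and 35677005 at the highest. Nnt received 477 to 2870 counts per library, Wdfy1 186 to 1014 and Atp10d 63 to 690, so that counting error is largest for Atp10d. Levels are given as CPM, a gene's count per 1000000 counts of the scaled library total. Lrrk2, read first as a check of the labels, averaged 13.2 ± 2.56 CPM (SD, n = 5) in WT control and 2.78 ± 0.879 CPM (n = 6) in KO control, and no KO library reached a WT library of the same treatment. The 16 microglial markers, 15 of them tested, summed to between 6892 and 11670 CPM in every library, with Siglech at 0 in all libraries of 4 of the groups. Markers of other brain cells differed between groups: a score over 32 astrocyte, oligodendrocyte and fibroblast markers (mean log2 CPM) ran from -1.14 to -0.82 in WT fibril libraries and from 1.02 to 2.66 in KO fibril libraries. An earlier analysis of these data set apart 7 libraries by RNA composition, total count or markers (KO control 1, 4 and 6, KO fibril 5, WT control 6, WT LPS 1 and 6). Values without them are given for some results, and for the lists as counts of calls.

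Nnt was 1.74- to 2.12-fold higher in KO than in WT cells over the 3 treatments. In WT control its libraries had 36.5, 37.7, 38.3, 39.2 and 40.9 CPM, and in KO control the lowest, median and highest were 61.0, 72.9 and 97.5 CPM. With LPS the WT libraries had a lowest, median and highest of 33.4, 35.5 and 37.0 CPM, and the KO libraries had 71.9, 73.0, 75.1 and 79.9 CPM. With fibrils the WT libraries had 30.5, 31.1, 31.6 and 31.6 CPM, and the KO libraries had 45.6, 45.9, 59.6, 60.2 and 60.5 CPM. The genotypes did not overlap under any treatment, and the WT libraries lay much closer together than the KO libraries in control and fibril cells, where the coefficient of variation was 4.29% and 1.69% in WT against 17.9% and 14.5% in KO. The fitted log2 difference, KO minus WT, was 0.95 ± 0.09 (SE) in control cells, 1.08 ± 0.10 with LPS and 0.80 ± 0.10 with fibrils, and with the other-cell marker score as a covariate the fibril value was 0.71 ± 0.13. In bulk RNA, fewer cells of a type and less RNA per cell cannot be told apart.

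**Figure D1:**
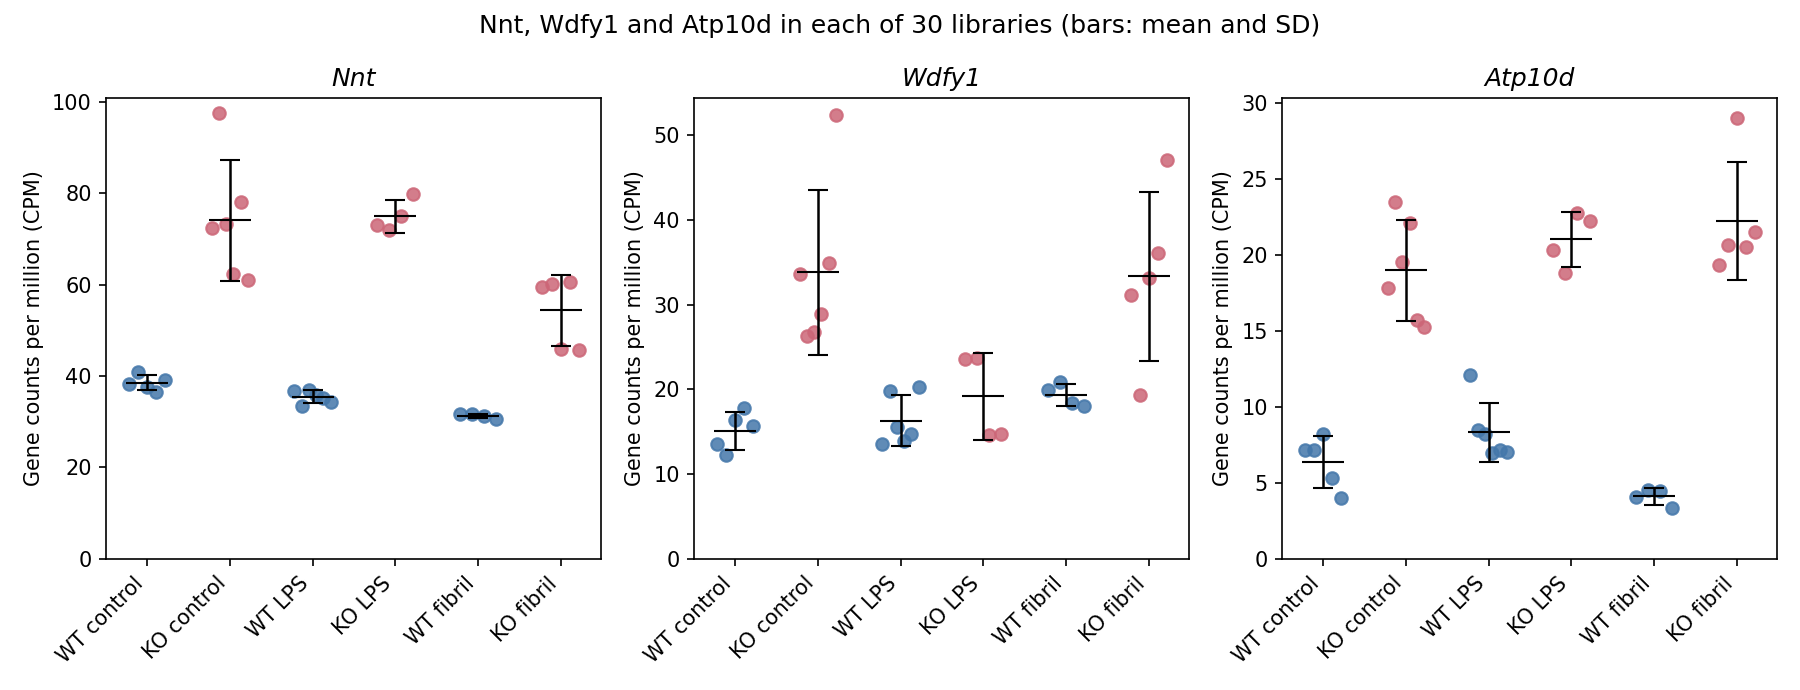
CPM of Nnt, Wdfy1 and Atp10d (vertical axes, starting at 0) in each of the 30 libraries (points), by group (horizontal axis), with the mean and SD of each group as black bars, WT in blue and KO in red. For Nnt and Atp10d every KO point lies above every WT point, while the 4 KO LPS libraries of Wdfy1 form a pair near 24 CPM and a pair near 15 CPM, within or close to the WT range.

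Wdfy1 was about 2-fold higher in untreated KO cells but not clearly so with LPS, so the higher level in KO was less steady than for the other genes. In control cells the WT libraries had 12.3, 13.5, 15.6, 16.3 and 17.8 CPM, and the KO libraries had a lowest, median and highest of 26.3, 31.3 and 52.4 CPM. These groups did not overlap. With LPS the WT libraries had a lowest, median and highest of 13.5, 15.1 and 20.3 CPM, and the KO libraries had 23.6, 23.7, 14.6 and 14.7 CPM for replicates 1 to 4. Only replicates 1 and 2 of KO LPS exceeded every WT LPS library, while replicates 3 and 4 lay among the lower WT values. In the other-cell marker score replicates 1 and 2 had 0.53 and 0.23, and replicates 3 and 4 had 2.12 and 2.80; its part in this split was not tested. With fibrils the WT libraries had 18.1, 18.4, 19.9 and 20.9 CPM, and the KO libraries had 19.3, 31.1, 33.1, 36.1 and 47.1 CPM. KO fibril replicate 2, at 19.3 CPM, lay inside the WT range and the other 4 KO libraries lay above it. The log2 difference, KO minus WT, was 1.16 ± 0.20 in control cells, 0.23 ± 0.20 with LPS and 0.79 ± 0.21 with fibrils. The LPS value was 0.11 without KO LPS replicate 1 or 2 and 0.34 without replicate 3 or 4. With the other-cell marker score as a covariate the fibril value was 1.26 ± 0.23.

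Atp10d had the largest fold difference of the 3 genes under each treatment. In control cells the WT libraries had 3.97, 5.28, 7.15, 7.16 and 8.18 CPM, and the KO libraries had a lowest, median and highest of 15.3, 18.7 and 23.5 CPM. With LPS the WT libraries had a lowest, median and highest of 6.94, 7.67 and 12.1 CPM, and the KO libraries had 18.8, 20.3, 22.2 and 22.7 CPM. With fibrils the WT libraries had 3.33, 4.05, 4.44 and 4.54 CPM, and the KO libraries had 19.3, 20.5, 20.6, 21.5 and 29.0 CPM. The genotypes did not overlap under any treatment, and the gap was widest with fibrils, where the mean was 4.09 ± 0.549 CPM (SD, n = 4) in WT and 22.2 ± 3.90 CPM (n = 5) in KO. The log2 difference, KO minus WT, was 1.58 ± 0.17 in control cells, 1.34 ± 0.17 with LPS and 2.44 ± 0.20 with fibrils. With the other-cell marker score as a covariate the fibril value was 1.93 ± 0.18.

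Taking all treatments together, the 15 KO libraries lay above the 15 WT libraries for Nnt (lowest KO 45.6, highest WT 40.9 CPM) and for Atp10d (15.3 and 12.1 CPM). For Wdfy1, 12 of the 15 KO libraries exceeded the highest WT library, at 20.9 CPM. Among all tested genes, 9 (0.0627%) had every KO library above every WT library, and within single treatments the share was 0.362% in control, 3.08% with LPS and 7.44% with fibrils. At an adjusted p under 0.05 in edgeR, 0.321%, 1.73% and 8.94% of all tested genes differed between genotypes in control, LPS and fibril cells. Since the 3 genes were selected on this contrast, these shares only show how common such differences were.

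Per kilobase of transcript, which allows the genes to be compared with each other, Nnt had the highest mean in every group, at 9.31 to 22.4 CPM per kb. Atp10d had the lowest, at 0.712 to 4.00 CPM per kb. Wdfy1 lay between, at 5.95 to 10.8 CPM per kb. The order of the CPM group means for Nnt was WT fibril, WT LPS, WT control, KO fibril, KO control and KO LPS from low to high, in which WT LPS and WT control overlapped, as did the last 2. For Atp10d the order was WT fibril, WT control, WT LPS, KO control, KO LPS and KO fibril, in which neighbours of the same genotype overlapped. For Wdfy1 the order was WT control, WT LPS, KO LPS, WT fibril, KO fibril and KO control, and each neighbouring pair overlapped.

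Of the 12 responses of these genes to treatment, 4 passed the threshold (edgeR's quasi-likelihood test, Benjamini-Hochberg adjusted over the 14346 genes). Nnt fell with fibrils in both genotypes and Wdfy1 fell with LPS in KO cells, and Atp10d fell with fibrils in WT cells. LPS and fibril responses within a genotype share the control libraries. Over all genes, LPS changed 15.1% in WT and 13.7% in KO, and fibrils changed 29.4% in WT and 23.7% in KO.

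With fibrils Nnt fell by 0.30 ± 0.10 (SE) on the log2 scale in WT cells (adjusted p = 0.0287) and by 0.45 ± 0.09 in KO cells (adjusted p = 7.64e-04). The fibril and control libraries did not overlap in either genotype, as was so for 29.8% of all genes in WT and 8.09% in KO. The WT call was lost when any of the 4 WT fibril libraries or WT control replicate 2 was left out (adjusted p up to 0.0678) and with the other-cell marker score as a covariate (log2 difference -0.23, adjusted p = 0.18). The KO call was lost when only KO control and KO fibril libraries were fitted (adjusted p = 0.0552). With LPS, Nnt gave -0.12 ± 0.09 in WT (adjusted p = 0.512) and 0.02 ± 0.10 in KO (adjusted p = 0.945), with overlapping groups. The response in KO minus that in WT, part of the contrast that chose the genes and so not tested, was 0.14 ± 0.14 for LPS and -0.14 ± 0.14 for fibrils.

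Wdfy1 fell by 0.82 ± 0.21 on the log2 scale with LPS in KO cells (adjusted p = 0.00677), from 33.8 ± 9.76 (SD, n = 6) to 19.2 ± 5.19 CPM (n = 4). All 4 LPS libraries lay below all 6 control libraries, and LPS and control libraries did not overlap for 10.2% of all genes in KO. Fitted without the other groups the adjusted p was 0.0533, and without the 7 libraries set apart the fall was 0.62 with an adjusted p of 0.0425. In WT cells Wdfy1 gave 0.11 ± 0.19 with LPS (adjusted p = 0.836). Its response in KO minus that in WT was -0.93 ± 0.28 for LPS and -0.38 ± 0.29 for fibrils, as a description. With fibrils the 4 WT libraries all lay above the 5 WT controls, from a mean of 15.1 to 19.3 CPM, but the log2 difference of 0.35 ± 0.21 did not pass (adjusted p = 0.214). It passed when only those groups were fitted (adjusted p = 0.0388), and with the marker score as a covariate it was -0.02 (adjusted p = 0.967). In KO cells the fibril value was -0.02 ± 0.19 (adjusted p = 0.958).

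Atp10d fell by 0.63 ± 0.19 on the log2 scale with fibrils in WT cells (adjusted p = 0.014), from 6.35 ± 1.69 (SD, n = 5) to 4.09 ± 0.549 CPM (n = 4). The groups overlapped, since WT control replicate 6 had 3.97 CPM. The call was lost without WT fibril replicate 4 (adjusted p = 0.0552), with limma-voom (adjusted p = 0.0634) and with the marker score as a covariate (log2 difference -0.23, adjusted p = 0.371). The 4 WT fibril libraries and WT control replicate 6, at -0.73, had 5 of the 6 lowest marker scores, and the part of other cells in this fall was not tested further. In KO cells fibrils gave 0.23 ± 0.16 (adjusted p = 0.338). The response in KO minus that in WT was 0.86 ± 0.25, also as a description. With LPS Atp10d gave 0.39 ± 0.17 in WT (adjusted p = 0.138) and 0.15 ± 0.17 in KO (adjusted p = 0.656), and the WT value passed with the marker score as a covariate (0.44, adjusted p = 0.0155). LPS and control libraries of Atp10d overlapped in WT, where 11.5% of all genes did not overlap.

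**Figure D2:**
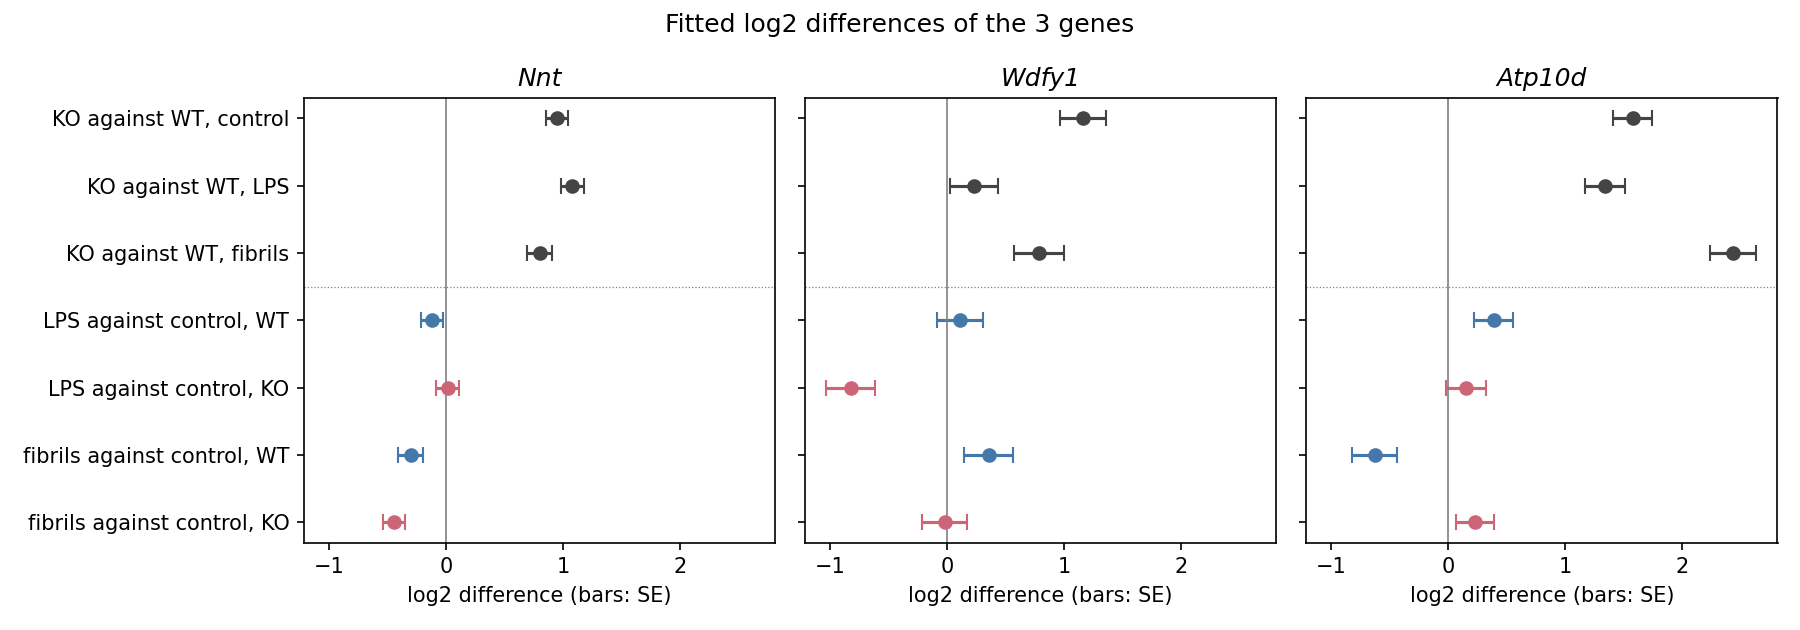
Fitted log2 differences (horizontal axes) with standard errors (bars) for each of 7 comparisons (rows), KO minus WT in grey, responses in WT in blue and in KO in red. The genotype differences lie to the right of 0, from 0.23 for Wdfy1 with LPS to 2.44 for Atp10d with fibrils, while most responses to treatment lie within 0.5 of 0.

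Each gene was counted mainly on 1 transcript sequence, which for Wdfy1 stands for 4 annotated models. The mean of that sequence was higher in KO under each treatment, but for Wdfy1 the genotypes overlapped on it with LPS and with fibrils. Nnt-202 held 77.0% of Nnt counts, Nnt-201 17.4%, Nnt-203 3.68% and the intron-retaining Nnt-205 1.30%. In control cells Nnt-202, with the exons shown above, had a mean of 27.8 ± 1.88 CPM in WT and 54.7 ± 9.31 CPM in KO, and Nnt-201 had 6.78 ± 1.47 and 14.8 ± 6.30 CPM. The share of Nnt-202 among Nnt counts was 72.1 ± 3.85% in WT control and 74.1 ± 5.33% in KO control. With LPS Nnt-202 had 29.0 ± 3.83 CPM in WT and 55.1 ± 6.34 CPM in KO, and Nnt-201 had 4.66 ± 2.66 and 17.7 ± 4.64 CPM, so that the share of Nnt-201 was 13.2 ± 7.47% in WT and 23.7 ± 6.84% in KO. With fibrils Nnt-202 had 26.2 ± 2.37 and 44.0 ± 9.30 CPM, and Nnt-201 had 3.22 ± 2.06 and 7.77 ± 6.00 CPM. Wdfy1-204 to Wdfy1-207, of identical sequence, held 88.8% of Wdfy1 counts, and had 13.1 ± 1.97 CPM in WT control and 31.3 ± 7.56 CPM in KO control. With LPS they had 13.45 ± 3.295 CPM in WT and 16.43 ± 4.996 CPM in KO, and with fibrils 15.62 ± 2.619 and 31.34 ± 9.819 CPM. The shorter Wdfy1-201 had 0.732 ± 0.579 CPM in WT control and 0.787 ± 0.829 CPM in KO control. Atp10d-202, the model with the stop, held 92.8% of Atp10d counts and had 5.74 ± 1.46 CPM in WT control, 18.4 ± 3.66 CPM in KO control, 3.92 ± 0.610 CPM in WT fibril and 21.0 ± 3.48 CPM in KO fibril libraries. The retained-intron model Atp10d-205 had 0.476 ± 0.193 CPM in WT control and 0.426 ± 0.586 CPM in KO control, with overlapping ranges.

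Transcript shares were tested for the responses to treatment only, by exact two-sided permutation tests over libraries, 48 tests in all. With groups of this size the smallest exact p was 0.00433 to 0.0159, whereas a single share would need a p under 0.00104 to pass adjustment over 48 tests, so no share could have passed on its own. None passed after adjustment (smallest adjusted p = 0.305, exact permutation), which says little about whether shares changed, and 4 had an unadjusted p under 0.05. These were a lower share of Nnt-205 with LPS in WT (0.273% against 2.27%), a lower share of Atp10d-205 with fibrils in WT (1.66% against 7.38%), a lower share of Wdfy1-204 to Wdfy1-207 with LPS in KO (85.2% against 93.4%) and a higher share of Nnt-202 with fibrils in WT (83.8% against 72.1%).

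**Figure D3:**
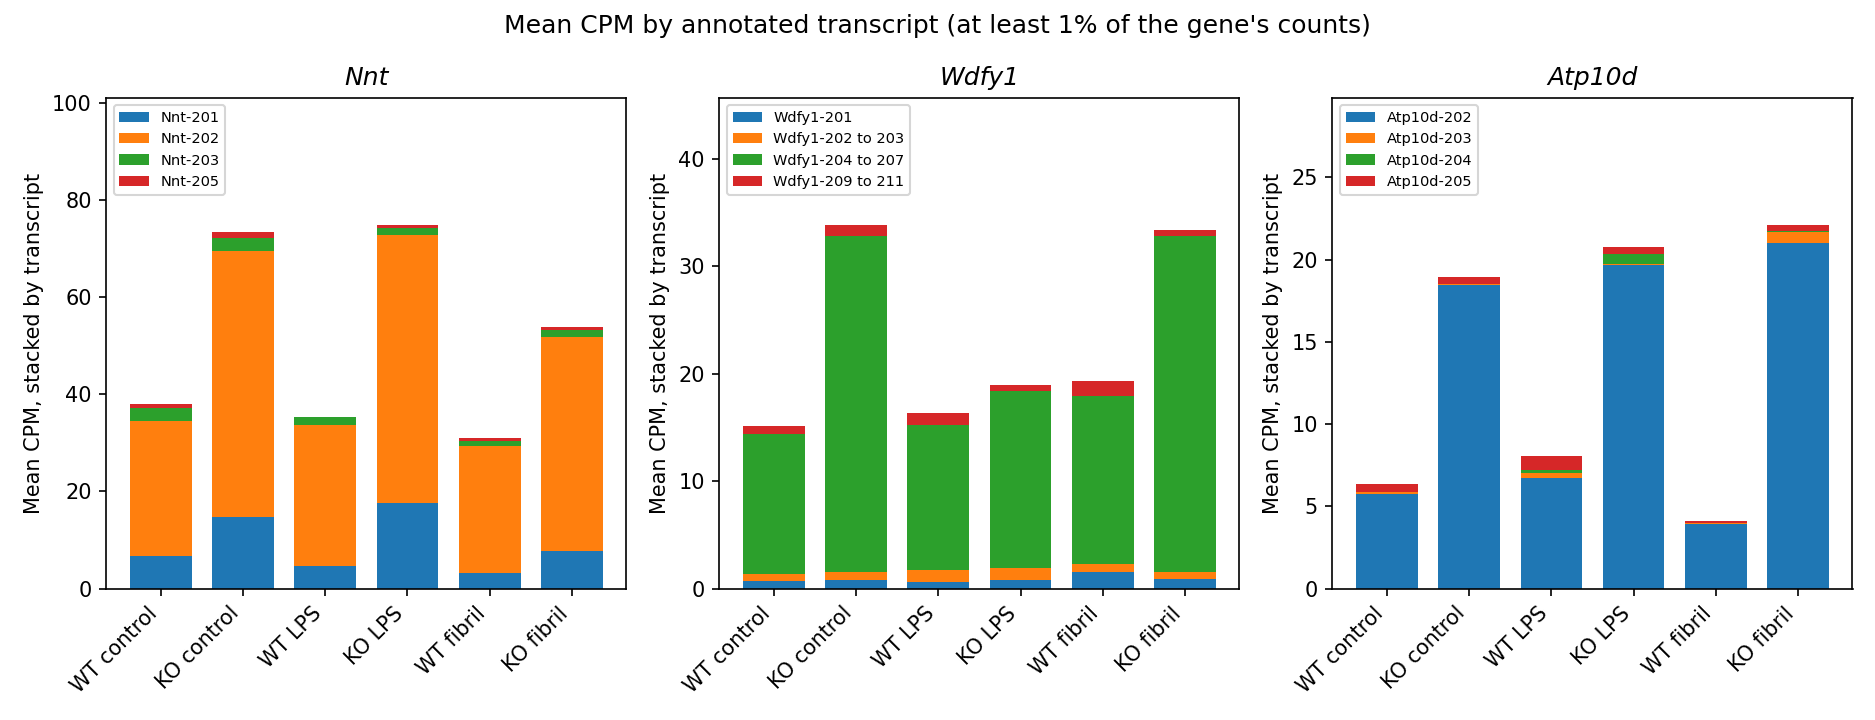
Mean CPM of each annotated transcript holding at least 1% of the counts of its gene (stacked bars, starting at 0) in the 6 groups (horizontal axis). Nnt-202, Wdfy1-204 to Wdfy1-207 and Atp10d-202 make up most of the height in every group, and their parts are taller in KO than in WT in control and fibril cells.

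In the model of all 6 groups, the genes around them passed the adjusted threshold between genotypes no more often than all genes. Of 76 genes annotated within 1 Mb of the 3 genes, 28 were tested, 11 around Nnt, 7 around Wdfy1 and 10 around Atp10d. Between genotypes 0 of 28 passed in control cells and 0 with LPS by edgeR, with 6 under an unadjusted p of 0.05 in each. The shares over all genes at the adjusted threshold were 0.321% and 1.73%, so that few calls among 28 genes is no result about these genes. The share of all genes at the unadjusted threshold is not given here, so the unadjusted counts are no result about them either. DESeq2 called 1 in each, Txk in control and Fryl with LPS, and limma-voom 1 and 0. With fibrils 1 of 28 passed, where 8.94% of all genes did. This was Slain2, a microtubule regulator 615.5 kb from Atp10d, which fell by 0.31 ± 0.09 on the log2 scale (adjusted p = 0.0324, and not past the threshold without KO LPS replicate 3, KO fibril replicates 1, 3 or 5, WT control replicate 5 or WT fibril replicates 1, 2 or 3). Its call was also lost with RLE scaling, library size alone, no filter, only the groups compared and the marker score as a covariate, where the log2 difference was -0.08 (adjusted p = 0.85). Without the 7 libraries set apart, 1 gene passed in control cells (Serpine2), 4 with LPS (Fryl, Nfxl1, Tec and Txk) and 2 with fibrils (Gabrb1 and Slain2). The shares over all genes in that fit are not given here. The median log2 difference of the 28 was -0.04 in control, 0.05 with LPS and -0.05 with fibrils, beside 0.01, 0.02 and 0.01 over all tested genes.

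Next to Nnt, Paip1, a regulator of translation 19.6 kb away, had 81.5 ± 6.09 CPM in WT control and 84.2 ± 9.66 CPM in KO control, a log2 difference of 0.05 ± 0.08. On the other side the nearest tested gene, Mrps30, a mitochondrial ribosomal protein gene 948.2 kb away, gave -0.08 ± 0.10. Mrpl44, which encodes another mitochondrial ribosomal protein, overlaps the start of Wdfy1 on the opposite strand and gave -0.04 ± 0.10. The sources used here do not give the strand setting of the counting, so reads of this overlap cannot be assigned with certainty. Beyond it Serpine2, a secreted protease inhibitor 18.1 kb from Wdfy1, had 23.6 ± 13.4 CPM in WT control and 48.1 ± 47.2 CPM in KO control, a log2 difference of 1.04 ± 0.50 (adjusted p = 0.683). On the other side of Wdfy1, Ap1s3 (30.3 kb) had only 1.57 ± 1.09 CPM in WT control and gave -0.80 ± 0.41 (adjusted p = 0.726). Next to Atp10d, Commd8 (35.1 kb) had 83.3 ± 6.90 CPM in WT control and a log2 difference, KO minus WT, of 0.03 ± 0.07 in control cells. Nfxl1 (214.5 kb) gave 0.04 ± 0.46 in control, -0.98 ± 0.50 with LPS (adjusted p = 0.311) and 0.79 ± 0.52 with fibrils (adjusted p = 0.367).

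**Figure D4:**
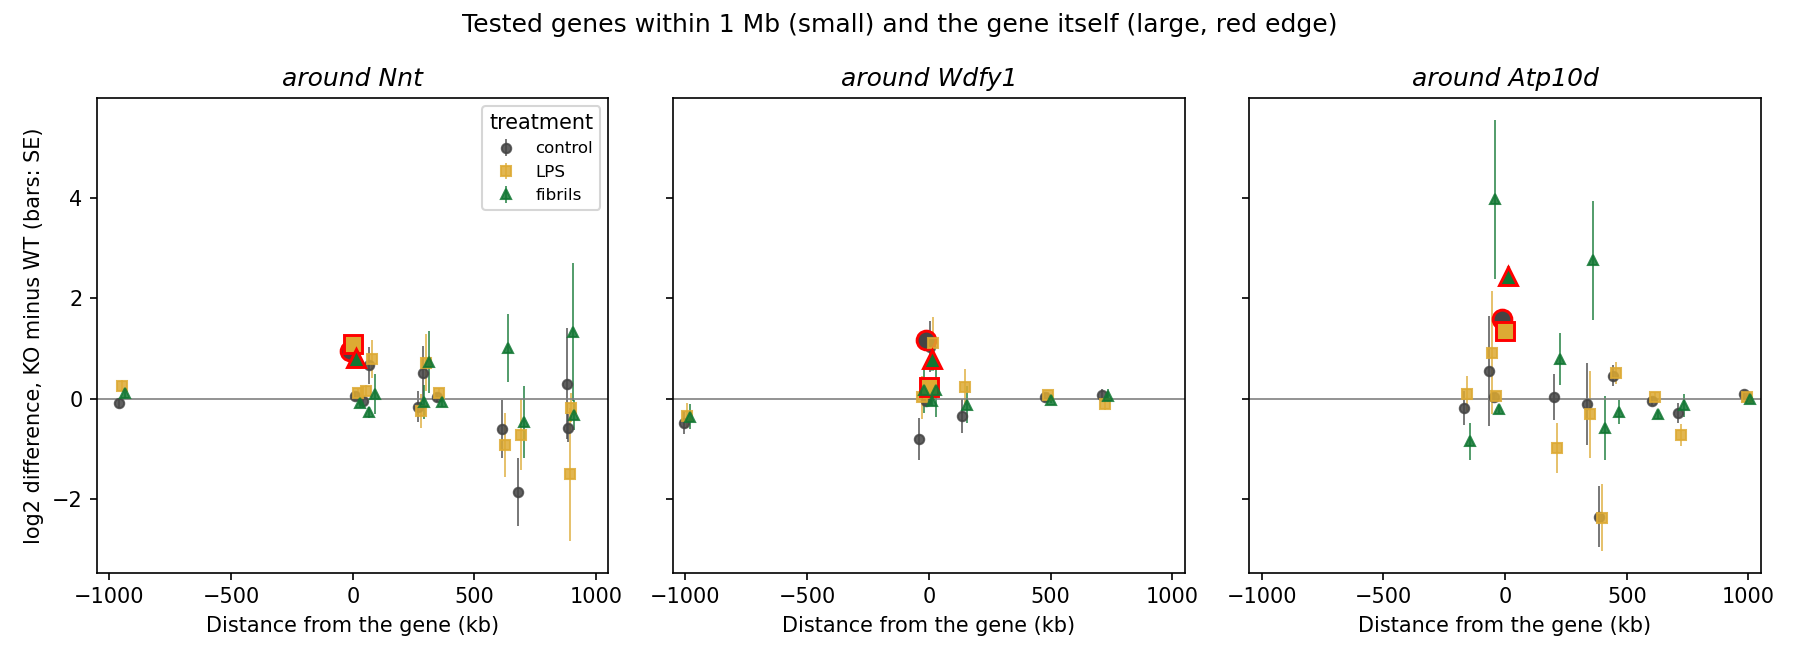
Log2 difference, KO minus WT, with its standard error (vertical axis) against distance from the gene in kb (horizontal axis) for the 28 tested genes within 1 Mb (small symbols) and for Nnt, Wdfy1 and Atp10d themselves (large symbols with red edges at 0 kb), by treatment. Most small symbols lie within 1 of 0, and the widest bars belong to genes with few counts.

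Genes of the pathways around the 3 proteins were called between genotypes mostly in fibril cells, as were all genes (0.321% in control, 1.73% with LPS and 8.94% with fibrils), so that counts of 0 in lists of this size are no result about the lists. Shares over all genes are not given for unadjusted counts or for the other tools, so those counts are no result about the lists either. Of 25 genes that make NADPH or serve the mitochondrial antioxidant systems Nnt feeds, 0 passed in control (0 at an unadjusted p under 0.05, 0 by DESeq2 and by limma-voom) and 0 with LPS (7 unadjusted, 2 by DESeq2, 1 by limma-voom). With fibrils 1 rose and 5 fell, among them Idh1, a cytosolic NADPH source, by 0.90 ± 0.18 on the log2 scale (adjusted p = 0.00605). Fibrils raised 9 and lowered 2 of the 25 in WT, and raised 6 and lowered 2 in KO, where 29.4% and 23.7% of all genes were called. In the same WT comparison 7 of 10 astrocyte and 7 of 10 fibroblast markers fell by edgeR, such as Gfap by 4.68 ± 1.21 (adjusted p = 0.00529). By limma-voom 0 of either marker list passed. With the marker score as a covariate the genes called over all lists went from 32 to 16. Sod2, the mitochondrial superoxide dismutase, rose by 2.55 ± 0.15 in WT (adjusted p = 3.6e-12) and 2.47 ± 0.13 in KO (adjusted p = 6.79e-13), so that Nnt fell while Sod2 rose. LPS raised 2 in WT and 3 in KO, where 15.1% and 13.7% of all genes were called, with Sod2 at 1.32 ± 0.13 and 1.18 ± 0.13, where Nnt did not pass. The median log2 difference of the list with fibrils was 0.16 in WT and 0.13 in KO, beside -0.05 and -0.04 over all genes.

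Among 13 tested flippases and partners of Atp10d, 0 differed between genotypes in control and 0 with LPS (2 unadjusted, and 0 by DESeq2 and by limma-voom, in each), and 1 fell with fibrils, Atp8b4, by 0.79 ± 0.22 (adjusted p = 0.0263, and not past the threshold without KO fibril replicate 4 or any 1 of the 4 WT fibril libraries). The fibril call made up 7.69% of the list, beside 8.94% of all genes, and is no result about the list. Tmem30a, the chaperone subunit that P4-ATPases need to leave the endoplasmic reticulum, rose with fibrils by 0.62 ± 0.09 in WT (adjusted p = 1.38e-05) and 0.34 ± 0.08 in KO (adjusted p = 0.00204). Of 16 genes of glucosylceramide metabolism, the lipid Atp10d is known to carry, 0 differed in control and 0 with LPS (2 unadjusted, and 0 by DESeq2 and by limma-voom, in each), and 4 fell in KO with fibrils, led by Asah1, the acid ceramidase, by 0.34 ± 0.08 (adjusted p = 0.00975). The list had a median log2 difference of -0.35 in that comparison, and all tested genes 0.01, with 8.94% of all genes called. With the marker score as a covariate 0 of the 16 passed. The Asah1 call was lost there, with library size alone, with no filter, with protein-coding transcripts only and with only the groups compared (edgeR, adjusted p up to 0.377).

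For Wdfy1, 30 other FYVE-domain or endosomal phosphoinositide genes gave 0 calls between genotypes in control (0 unadjusted, 0 by DESeq2 and by limma-voom), 0 with LPS (8 unadjusted, 3 by DESeq2, 1 by limma-voom), and 1 rise and 2 falls with fibrils. Of 20 genes of the Toll-like receptor 3 and 4 and TRIF pathway, 0 rose in KO, and 1, 2 and 2 fell in control, LPS and fibril cells. Irak4, a kinase below the receptors, was lower in KO in every treatment, by 0.65 ± 0.08, 1.00 ± 0.08 and 0.65 ± 0.08 in control, LPS and fibril cells (largest adjusted p = 4.18e-05). The distance of Irak4 from the targeted gene Lrrk2 was not examined, and the cause of its difference was not tested. Myd88, the adaptor of the other signalling arm of Toll-like receptor 4, was lower in KO with LPS by 1.11 ± 0.22 (adjusted p = 0.00774, and 0.0739 without KO LPS replicate 4). Tlr4 itself was lower in KO with fibrils by 0.51 ± 0.11 (adjusted p = 0.00983), a call lost with the marker score as a covariate (adjusted p = 0.432) and with only the groups compared (adjusted p = 0.0721). Ticam1, which encodes TRIF itself, rose with LPS by 1.21 ± 0.16 in WT (adjusted p = 1.96e-06) and 0.81 ± 0.17 in KO (adjusted p = 8.31e-04). Wdfy1 fell in KO under the same treatment. Of 8 other genes known to differ among C57BL/6 substrains 4 were tested, and 0 differed between genotypes in any treatment by edgeR with all libraries (0, 2 and 1 unadjusted, 0, 1 and 0 by DESeq2, and 0 in each by limma-voom, in control, LPS and fibril cells). Without the 7 libraries set apart, edgeR called 0, 1 and 1 in the same order. With only 4 genes tested, and 0.321%, 1.73% and 8.94% of all genes called, 0 calls is no result about these genes or about substrain. Whether substrains differ in the RNA level of these 4 genes was not examined. Cyfip2, an actin regulator, gave -0.31 ± 0.20, -0.73 ± 0.21 and -0.46 ± 0.21, and Dock2, a guanine nucleotide exchange factor, gave -0.20 ± 0.11, -0.29 ± 0.11 and -0.17 ± 0.12 in the 3 treatments.

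In the fibril comparison of genotypes, where most of these list calls fell, several markers of other cells were called higher in KO by edgeR. These were 7 of 10 astrocyte, 3 of 12 oligodendrocyte, 3 of 3 neuronal, 2 of 5 endothelial and pericyte and 7 of 10 fibroblast markers. DESeq2 called 9, 7, 3, 3 and 8 in the same order, and limma-voom 0 in each list. The median log2 differences of the lists were 4.17, 4.73, 3.56, -0.08 and 5.00, so the endothelial and pericyte list as a whole was not higher in KO. Of 15 microglial markers 2 were lower in KO, Csf1r, the receptor microglia need to survive, by 0.90 ± 0.16 (adjusted p = 0.00179) and Ptprc, which encodes CD45, by 0.47 ± 0.11 (adjusted p = 0.0124). The median log2 difference of the 15 was -0.10, and 0 of them passed with the marker score as a covariate. Over all tested genes 8.94% were called in this comparison, so 2 of 15 is no result about the microglial markers as a list. Summed astrocyte markers ran from 8.28 to 15.1 CPM in WT fibril and from 61.7 to 329.2 CPM in KO fibril libraries, and fibroblast markers from 14.4 to 15.4 and from 33.9 to 118.5 CPM. Oligodendrocyte markers ran from 95.99 to 107.6 CPM in WT fibril and from 97.1 to 353.9 CPM in KO fibril libraries, neuronal markers from 0.490 to 1.22 and from 3.61 to 14.1 CPM, and endothelial and pericyte markers from 15.8 to 20.2 and from 13.5 to 26.9 CPM. Gjb6, Mog, Mobp and Gad1 were at 0 in all WT fibril libraries. With the marker score as a covariate, the number of list genes called in that comparison went from 16 to 1, and Idh1 then gave -0.72 ± 0.24 (adjusted p = 0.267). The part of other cells in these differences was not tested.

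**Figure D5:**
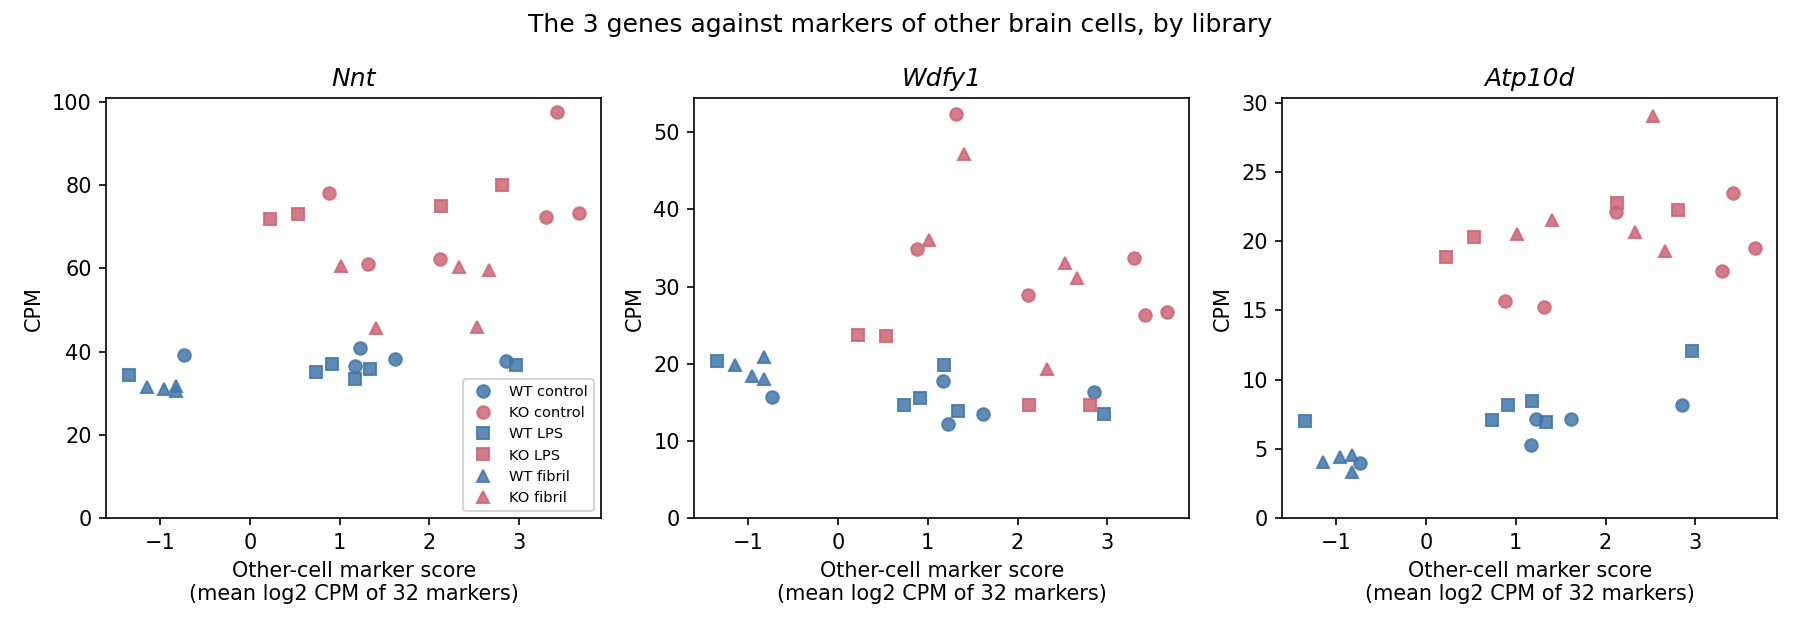
CPM of each gene (vertical axes, starting at 0) against the other-cell marker score, the mean log2 CPM of 32 astrocyte, oligodendrocyte and fibroblast markers (horizontal axes), in 30 libraries, WT in blue, KO in red, with circles for control, squares for LPS and triangles for fibrils. For Nnt and Atp10d every KO point lies above every WT point, and the WT fibril triangles sit together at scores from -1.14 to -0.82.

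The genes whose log2 CPM followed each gene most closely over the 30 libraries were taken by Pearson's r, as a description, since these libraries share the genotype contrast. For Nnt they were 1500015A07Rik (r = 0.86), Gm14548 (0.85), Kif21a (0.85), Gm14150 (0.85) and Atp10d (0.84). For Atp10d they were Gm14548 (0.92), Gm15925 (0.91), Kif21a (0.87), Gm14150 (0.86) and Nnt (0.84), so 3 genes outside the set stood on both lists. Kif21a, a kinesin gene on chromosome 15, had 1.80 CPM in WT control and 8.41 CPM in KO control, and Gm14548, a gene of a family with near-identical copies on chromosome 7 whose reads may be split, had 2.93 and 29.1 CPM. The distance of Kif21a from Lrrk2 was not examined either. For Wdfy1 the correlations were lower, with Ctse at 0.73 and Pigu, Tmem150a, Bccip and Naip3 at 0.71.

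Within groups, after the 6 group means were removed, the genes parted ways. Wdfy1 deviated together with Ccl2 (r = 0.88), Ifitm6 (0.86) and Clec4e (0.84), a chemokine, an interferon-induced membrane protein and a C-type lectin receptor. Nnt deviated with Pdcd4 (0.82), Slc30a5 (0.79) and Chpt1 (0.79), and Atp10d with Pfas (0.84), Dnah11 (0.80) and Sspn (0.80). Between the 3 genes, r of the levels was 0.84 for Nnt and Atp10d, 0.54 for Wdfy1 and Atp10d and 0.46 for Nnt and Wdfy1, and r of the deviations was 0.06, -0.32 and -0.56. All points of these correlations share their library, its depth and its scaling.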

How the data were processed

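RNA from primary microglia was sequenced in 30 libraries of 6 groups (2 genotypes, 3 treatments). The authors deposited a table of estimated counts per transcript, with reads handled by CASAVA 1.7.1 and STAR 2.4.2a on mm10 per the submitters' processing notes. Which program counted the reads was not given in the sources used here. Transcript IDs were matched to GENCODE M21 (91320 of 94647, the other 3327 holding 0.779% to 0.891% of counts per library) and their counts summed per gene. Genes were filtered with edgeR's default (14346 kept) and scaled by TMM (factors 0.827 to 1.14), and 1 quasi-likelihood model over the 6 groups (edgeR 4.0.16, R 4.3.3, 24 residual degrees of freedom) gave log2 differences, SEs and Benjamini-Hochberg adjusted p-values, called under 0.05. Log2 CPM used a prior count of 2. CPM per kb divides each transcript's CPM by its length. Shares were compared by exact permutation (scipy 1.17.1, Python 3.11.15), in 48 tests. The method was tested on simulated counts.

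The 3 genes and the lists were chosen with earlier results of these data known. Named besides them were, per list and comparison, up to 4 called genes with the smallest p (otherwise the 2 smallest), of which the text gives examples, the nearest tested and all called genes within 1 Mb, and the 5 (levels) and 3 (deviations) genes of highest r. Alternatives were RLE and library-size scaling, other filters, DESeq2 1.42.0, limma 3.58.1 voom, fewer samples, the replicate number as a block, the marker score, protein-coding transcripts and, chosen after seeing the data, identical transcripts counted once.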

Additional observations from a re-analysis of the deposited data

Results flagged for a closer look

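Of 18 groups of 4 to 6 libraries looked at for the 3 genes, 3 held a library far from the rest, where chance gives about 1 in 20 groups. Wdfy1 in KO control replicate 6 had 52.4 CPM, with the next library at 34.9 CPM. Atp10d in WT LPS replicate 1 had 12.1 CPM, with the next at 8.48 CPM. Atp10d in KO fibril replicate 3 had 29.0 CPM, with the next at 21.5 CPM. The fibril response of Atp10d in KO minus that in WT was 0.86 on the log2 scale, and this difference was not tested because the gene was chosen on it. In KO the fibril response did not pass (0.23 ± 0.16, edgeR adjusted p = 0.338). The fall in WT did not pass with the marker score as a covariate (-0.23, edgeR adjusted p = 0.371).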

How the results depend on the processing

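Counting error limits Atp10d most, with as few as 63 counts in a library. Each KO minus WT difference of the 3 genes kept its sign in all 12 alternatives and in all 30 fits without 1 library. The genes were selected for a higher level in KO in these same libraries, so the kept sign is no support for it. For Wdfy1 with LPS the value ran from 0.17 to 0.36 over the alternatives, beside an SE of 0.20 in the main fit. With library size as the only scaling, which shifted the median of all genes by 0.15 for KO against WT with fibrils, -0.21 and -0.17 for LPS in WT and KO and -0.20 for fibrils in WT, Nnt differed by 1.17 with LPS and 0.96 with fibrils and its LPS response in WT passed at -0.33. With the marker score as a covariate the fibril differences were 1.26 for Wdfy1 and 1.93 for Atp10d, the LPS response of Atp10d in WT passed at 0.44, and the fibril responses in WT no longer passed for Nnt (-0.23) and Atp10d (-0.23), nor did that of Atp10d with limma-voom (-0.58). Fitted with only the groups compared, Wdfy1 with LPS in KO (-0.82) and Nnt with fibrils in KO (-0.46) no longer passed and Wdfy1 with fibrils in WT passed (0.33). The cause was not tested. Leaving out single libraries, the WT fibril response ran from -0.36 to -0.28 for Nnt and from -0.76 to -0.53 for Atp10d.

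With the replicate number as a block (replicate block), LPS raised Atp10d by 0.40 and fibrils raised Wdfy1 by 0.54 in WT, both past the threshold. Same-numbered libraries of the groups compared correlated from -0.519 to 0.655 in 30 pairs, with 15 over 0.1, so the numbers were not taken to pair them.

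Shares over all genes are not given for the alternative fits in this paragraph, so their counts are no result about the neighbours or the lists. Genes within 1 Mb called between genotypes numbered 0, 0 and 1 in control, LPS and fibril cells. In control they were 1 without the 7 libraries set apart, 1 with limma-voom and 1 with DESeq2. With LPS they were 1 with the marker score, 4 without the 7 libraries, 4 with only the groups compared, 1 with DESeq2 and 0 to 2 without single libraries. With fibrils they were 0 with RLE, with library size alone, without a filter and with only the groups compared, 2 without the 7 libraries, and 0 to 2 without single libraries. List genes called between genotypes numbered 1, 2 and 16. In control they were 3 without the 7 libraries and 1 to 2 without single libraries. With LPS they were 4 with the marker score, 14 without the 7 libraries, 15 with only the groups compared, 4 with limma-voom, 9 with DESeq2 and 1 to 7 without single libraries. With fibrils they were 5 with library size alone, 8 without a filter, 1 with the marker score, 27 without the 7 libraries, 7 with only the groups compared and 6 to 22 without single libraries. The counts without the 7 libraries are split here in the order NADPH, flippase, glucosylceramide, FYVE, Toll-like receptor and substrain lists. They were 1, 1, 0, 0, 1 and 0 in control, 1, 0, 2, 6, 4 and 1 with LPS, and 7, 2, 8, 6, 3 and 1 with fibrils. For treatment the list genes called were 21 (LPS, WT), 11 without a filter and 11 to 23 without single libraries; 15 (LPS, KO), 25 with library size alone, 23 without the 7 libraries and 9 with only the groups compared; 32 (fibrils, WT), 16 with the marker score; and 34 (fibrils, KO), 14 with only the groups compared.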
